A study of Mus musculus with 76 samples.

Results

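The Bcl2 family of survival and death genes was described across 76 single mouse iHPCs, engraftable blood progenitors that, per the labels, arise in vitro when Runx1, Hoxa9 and Hoxa10 are induced together in pluripotent stem cells. The members were chosen by name: the survival genes Mcl1, Bcl2, Bcl2l1 and Bcl2l2, the effector genes Bax and Bak1, and the BH3-only genes Bid, Bad, Bcl2l11 and Bbc3. All 10 were among the 15192 genes of the deposited table. Each sample was 1 sorted cell, of which polyA RNA was sequenced after reverse transcription and amplification (Vazyme Discover-sc WTA Kit V2, then TruePrep DNA Library Prep Kit V2). All cells carried the same label and no stem cell line, clone, culture or sort gate was named for any of them, so they counted as 1 sample, and no test was made between cells. Whether the factors were still induced at the sort is not given in the sources used here. Values are TPM, a share of all transcripts in a cell that is scaled for transcript length. Detection means 1 TPM or more. The interval beside a share is an exact 95% Clopper-Pearson interval and covers only the counting of cells.

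Proteins of this family decide whether the mitochondrial outer membrane stays closed. The effectors Bax and Bak1 form pores in it and release cytochrome c, which leads to caspase activation and apoptosis. The survival proteins bind and restrain the effectors, and the BH3-only proteins, which share only the short BH3 motif with the rest, are produced or activated under stress and either occupy the survival proteins or activate the effectors. In blood progenitors of mice, Mcl1 is required for survival, Bcl2l1 is known for its role in red cell precursors, and Bcl2 for its role in lymphocytes.

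The label of the cells was checked against markers. All 12 listed genes common to blood cells were detected in at least 38 cells, beside 23.1% of all genes. Arhgdib, Coro1a, Lsp1, Cd34 and Cd48 were in all 76. The pluripotency genes Pou5f1 and Klf4 and the stromal gene Col1a1 were in 0 of 76 cells, for which the exact interval reaches 4.74%, and Pdgfrb, found in stromal cells, was in 22. Of 8 pluripotency genes 4 were in the table, and their summed level per cell ran from 0 to 49.2 TPM. Of 7 stromal genes 4 were in the table, with sums of 0 to 167 TPM, and the part of such RNA in the results was not tested. A median of 4182.5 genes per cell was detected (range 2465 to 5992). The medians were 3638 genes in cells whose titles end in 10 and 3792 in those ending in 11, while the remaining title numbers gave 4096.5 to 4469.5. Zeros made up 66.3% of all values. The general transcription genes Polr2a and Tbp, which every cell uses, reached 1 TPM in 22 and 36 cells. A member at 0 is therefore said to be listed at 0, not to be unexpressed.

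The family was present unevenly. Of the 10 members 4 (Bax, Bid, Bad and Bcl2l1) were detected in at least 38 cells, as were 23.1% of all listed genes. At 10 TPM the same 4 genes were in at least 38 cells, against 19.8% of all genes. A median of 5 members was detected per cell (range 2 to 8). In 28 cells there were 5 members, in 16 cells 4, and in 12 cells each 3 or 6.

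The effectors Bax and Bak1, which act alike at the membrane, were detected in 75 and 19 cells, and the stretch before each gene's start is shown beside that contrast. Bax (chromosome 7, 45461695 to 45466903, GRCm38.p6) and Bak1 (chromosome 17, 27019812 to 27028627) both lie on the minus strand. The 250 bases before the RefSeq start (RefSeq, GRCm38.p6) are printed 5′ to 3′ on the gene's strand, from chr7:45466899-45467148 for Bax and chr17:27028628-27028877 for Bak1. The Bax stretch precedes a transcript start that lies a few bases inside the span of the gene, so its last bases fall within that span. Capitals mark the matches, on either strand, to any of the motifs searched.
Bax: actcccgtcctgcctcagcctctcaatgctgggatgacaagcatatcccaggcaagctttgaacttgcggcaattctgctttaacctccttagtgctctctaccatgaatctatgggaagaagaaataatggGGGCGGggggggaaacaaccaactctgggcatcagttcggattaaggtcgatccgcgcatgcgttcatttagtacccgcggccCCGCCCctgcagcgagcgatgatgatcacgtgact
Bak1: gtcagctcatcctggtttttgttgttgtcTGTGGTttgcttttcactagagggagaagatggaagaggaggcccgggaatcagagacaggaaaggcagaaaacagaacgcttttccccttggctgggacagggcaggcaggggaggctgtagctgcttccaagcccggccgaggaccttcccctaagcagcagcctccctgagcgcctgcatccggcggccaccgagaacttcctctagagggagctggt

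All motifs were searched on both strands. The GC box was spelled GGGCGG. The CCAAT box was spelled as named, and the TATA box was spelled TATAAA. The ETS core, bound by a family that includes many blood regulators, was spelled CCGGAAG. For the RUNX motif, of the kind that Runx1 binds, the letters were TGNGGT. No motif holds another whole. The Bax stretch held 2 GC boxes and no RUNX motif, and the Bak1 stretch held 1 RUNX motif and no GC box. Neither held a CCAAT box, a TATA box or an ETS core. The stretch held 14 CpG in Bax and 8 in Bak1, beside a median of 6 in the 32841 RefSeq windows of the same length. Over the 16 windows of the family, GC boxes were in 11, which belonged to 8 of the 10 genes, and RUNX motifs in 7, which belonged to 5 genes. The genes with a GC box ran from Bcl2l2, detected in 3 cells, to Bax in 75. Those without one in these windows were Bak1, in 19 cells, and Bcl2l1, in 51. All Bcl2l1 windows lie inside the gene's span, ending at 152831978 or before, while the span reaches 152833803 on the minus strand. The bases before its outermost start were therefore not searched. The windows of Mcl1 and Bbc3, and some of those of Bad and Bcl2l11, also lie inside the span of their gene. The genes with a RUNX motif were Bad, Bak1, Bbc3, Bcl2l11 and Bid, detected in 14 to 58 cells. The part of these letters in detection was not tested. Of all windows 32.7% held a GC box and 40.1% a RUNX motif. TATA boxes were in 0 of the 16 windows and in 12.4% of all windows. A match describes the letters only and no binding was measured.

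Among survival genes, Bcl2l1, which encodes Bcl-xL, was the most frequent. It was detected in 51 cells (67.1%, interval 55.4 to 77.5%), and its level ran from 0 to 743 TPM with a median of 85.3 TPM. At 10 TPM it was in 48 cells, where its median was 153 TPM. Cells thus fell apart into those with Bcl2l1 at 26.995 TPM or more and those with little or none, with 3 cells between 1 and 10 TPM. The RefSeq span of Bcl2l1 (chromosome 2, 152758732 to 152833803) overlaps Cox4i2, a respiratory chain gene detected in 74 cells with a median of 528 TPM. Whether reads were counted by strand is not given in the sources used here, so reads from the shared stretch cannot be assigned.

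Mcl1, whose protein is short-lived and restrains Bak1 in particular, was detected in 27 cells (35.5%, 24.9 to 47.3%). It was listed at 0 in 36 cells and its median was 0.12 TPM, while the highest cell had 97.1 TPM. Where it reached 10 TPM, in 26 cells, its median was 47.9 TPM. No cell reached 100 TPM of Mcl1, against 35 cells for Bcl2l1. By mean level over the cells Mcl1 held rank 5551 of the 15192 genes, and Bcl2l1 rank 1902.

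Bcl2, the founding member of the family, was detected in 23 cells (30.3%, 20.2 to 41.9%), with a median of 0.22 TPM and a highest value of 97.51 TPM. A further 36 cells held traces above 0 but under 1 TPM, the most of any member. At 10 TPM Bcl2 remained in 18 cells, with a median of 27.05 TPM there. Bcl2l2, which encodes Bcl-w, was listed at 0 in 71 cells, reached 1 TPM in 3 cells (3.95%, 0.82 to 11.1%) and had 1.74 TPM in its highest cell.

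**Figure D1:**
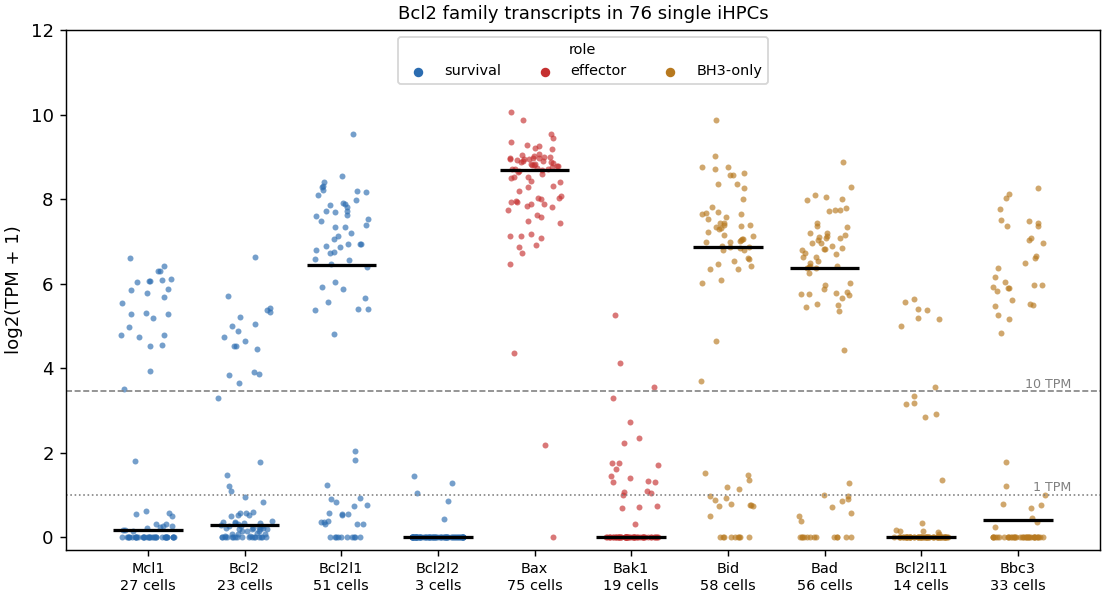
Level of each Bcl2 family gene as log2(TPM + 1) on the vertical axis, with a point for each of 76 cells and a bar at the median; colours give the role, and lines mark 1 and 10 TPM. Bax lies high in nearly every cell (75 detected), while Mcl1, Bcl2, Bcl2l1, Bid, Bad and Bbc3 split into cells near 0 and cells above 10 TPM. Other genes of similar detection also had few values between 1 and 10 TPM.

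Which survival gene led differed from cell to cell. Bcl2l1 was the highest of the 4 in 47 cells (61.8%, 49.98 to 72.8%), Mcl1 in 12, Bcl2 in 8 and Bcl2l2 in 0. In 9 cells (11.8%, 5.56 to 21.3%) no survival gene reached 1 TPM. Exactly 1 survival gene was detected in 37 cells, 2 in 23 and 3 in 7. Mcl1 and Bcl2l1 coincided in 17 cells (18.1 if their shares were independent), Bcl2 and Bcl2l1 in 15 (15.4), and Mcl1 and Bcl2 in 7 (8.17). The pairs were thus found together about as often as independent shares give.

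The effectors stood far apart. Bax was detected in 75 cells (98.7%, 92.9 to 99.97%) at a median of 410 TPM, and the quartiles were 237 and 491 TPM. It reached 100 TPM in 72 cells, and its highest value was 1078 TPM. The lowest 4 cells had 0, 3.55, 19.6 and 88.0 TPM. By mean level Bax held rank 560 of all genes. Bak1 was listed at 0 in 52 cells and detected in 19 (25%, 15.8 to 36.3%), of which 3 reached 10 TPM, and its highest value was 37.1 TPM. Bak1 exceeded Bax in 1 cell, the cell in which Bax was listed at 0 and Bak1 had 1.10 TPM. Ggnbp1, which overlaps Bak1 on the chromosome, was detected in 3 cells.

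Among BH3-only genes, Bid, whose protein is cut by caspase 8 and so links death receptors to mitochondria, was detected in 58 cells (76.3%, 65.2 to 85.3%). Its median was 115 TPM and its highest cell had 946 TPM. Bad, which growth factor signals hold inactive by phosphorylation, was detected in 56 cells (73.7%, 62.3 to 83.1%), with a median of 81.3 TPM and a highest value of 467 TPM. Bad overlaps Gpr137, detected in 12 cells.

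Bbc3, a p53 target that encodes Puma, was detected in 33 cells (43.4%, 32.1 to 55.3%) and reached 10 TPM in 31 of them, where its median was 82.3 TPM and its highest value 309 TPM. In the other 43 cells it was under 1 TPM. Bcl2l11, which encodes Bim, a gene of the Foxo response to lost growth factor, was listed at 0 in 56 cells. It was detected in 14 (18.4%, 10.45 to 28.97%), 8 of them at 10 TPM or more, and its highest cell had 49.1 TPM. At 10 TPM a cell held a median of 2 BH3-only genes. There were none in 2 cells, 1 in 26, 2 in 27, 3 in 18 and all 4 in 3. Bid was the highest BH3-only gene in 37 cells, Bad in 25, Bbc3 in 12 and Bcl2l11 in 0.

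In order of median TPM, the members ran Bax, Bid, Bcl2l1, Bad, Bbc3, Bcl2 and Mcl1, with Bak1, Bcl2l11 and Bcl2l2 at a median of 0. Levels still went with transcript length, as given below, and the part of length in this order was not tested. Only the step between Bax and Bid had interquartile ranges that did not overlap, 237 to 491 TPM for Bax and 1.27 to 176 TPM for Bid, and Bax was higher in 67 of 76 cells. Bid exceeded Bcl2l1 in 42 cells and lay below it in 33. Bcl2l1 exceeded Bad in 38 and lay below it in 36, so the order of these 3 genes is not resolved by the spread between cells. The same holds for Bbc3 over Bcl2 (34 cells against 32) and for Bcl2 over Mcl1 (36 against 33).

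Levels of the members went with transcript length, although TPM divides by it. The longest coding transcript in GENCODE M21 was 1100 bases for Bax, 1533 for Bad, 1814 for Bbc3, 2189 for Bid, 2387 for Bak1, 2568 for Bcl2l1, 3418 for Mcl1, 3813 for Bcl2l2, 5036 for Bcl2l11 and 7191 for Bcl2. Across the 10 genes, which share the same libraries, the Spearman rho of length with mean TPM was -0.68 and with cells detected -0.78. Across the 13155 genes with a coding transcript the values were -0.31 and -0.21. Of genes with transcripts under 1500 bases 45.9% were detected in at least 38 cells, of those from 1500 to under 2500 bases 33.4%, of those from 2500 to under 4000 bases 21.1% and of longer ones 11.9%. The part of length in the low values of Mcl1, Bcl2 and Bcl2l11 was not tested.

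**Figure D2:**
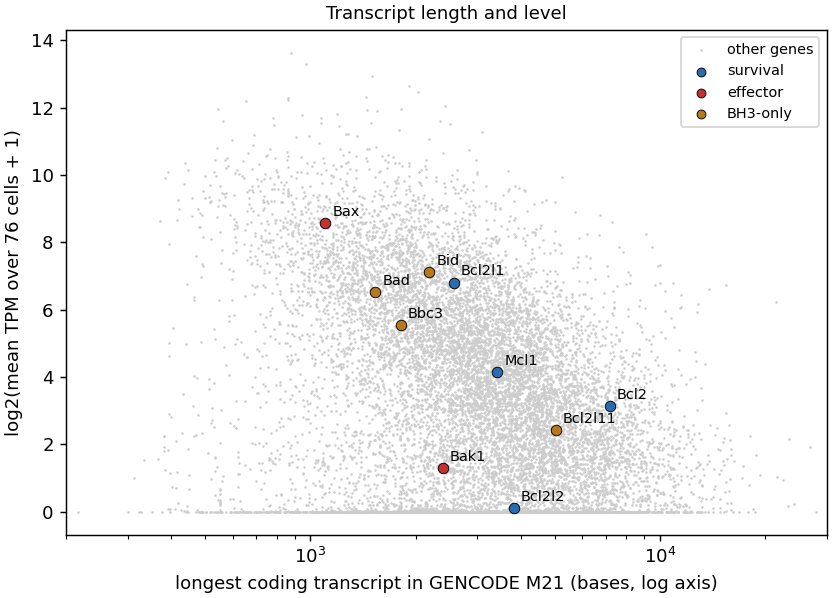
Mean level over 76 cells, as log2(mean TPM + 1), against the longest coding transcript in bases on a log axis; grey points are other genes and coloured points the 10 members by role. Bax, at 1100 bases, is the shortest and highest member, and Bcl2, at 7191 bases, the longest.

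Within a cell, the survival genes mostly had the lower summed TPM. The 4 survival genes summed to a median of 105 TPM (interquartile range 38.9 to 198 TPM) and the 2 effectors to 410 TPM (237 to 493 TPM). The BH3-only genes summed to 243 TPM (147 to 407 TPM). The survival sum was below the effector sum in 68 cells (89.5%, 80.3 to 95.3%) and below the BH3-only sum in 59. The median of the log2 ratio of survival to effector sums, with 1 TPM added to each, was -1.88, and it ran from -8.85 to 7.41. At least 1 survival gene and 1 effector were detected together in 67 cells (88.2%, 78.7 to 94.4%). The longest transcript of Bax has 1100 bases and those of the survival genes 2568 to 7191 bases. The part of length in these sums and in their ratio was not tested. These are amounts of RNA, and the proteins were not measured.

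The cells at both ends of that ratio were picked by these same genes, so their values are a description. In the 8 cells with more survival than effector transcripts, Bcl2l1 had a median of 304 TPM and Bax a median of 158 TPM. The 3 lowest Bax cells were among them, at 0, 3.55 and 19.6 TPM. In the 9 cells with no survival gene at 1 TPM, Bax ran from 134 to 611 TPM, Bbc3 was detected in 6 and Bid in 5. These cells had 3402 to 4717 genes detected, and those with more survival transcripts 3385 to 5821. The part of depth in these cells was not tested.

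**Figure D3:**
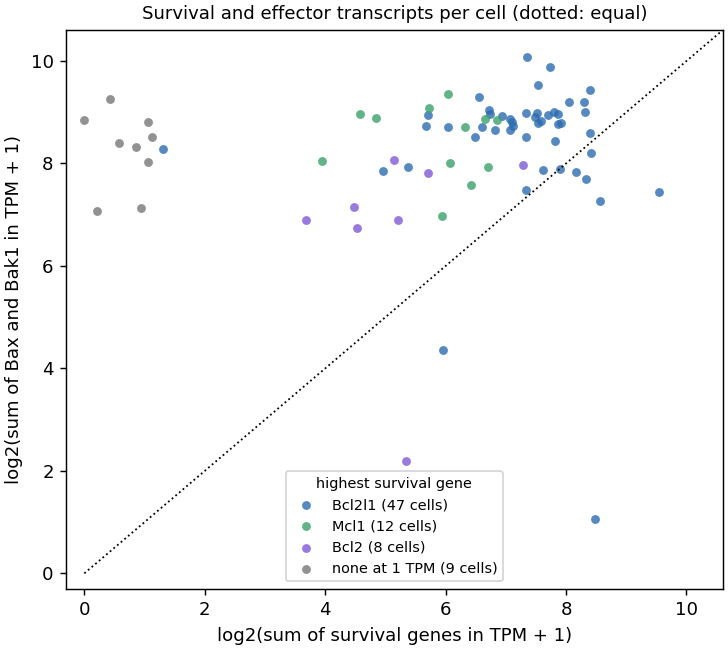
Sum of Bax and Bak1 against the sum of the 4 survival genes, both as log2(TPM + 1), with a point per cell coloured by its highest survival gene. Of the 76 cells 68 lie above the dotted line of equal sums, and the 9 grey cells without a survival gene at 1 TPM have effector sums of 134 to 611 TPM, with a median of 336 TPM against 410 TPM in all cells.

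Members showed little shared variation across cells. Over 36 pairs of the 9 members detected in at least 10 cells, the median Spearman rho across the 76 cells was -0.02, with 17 pairs above 0 and 19 below. Over all pairs of the 8034 genes with that detection the median was 0.01, and the central 95% ran from -0.22 to 0.25. The highest value of the family was that of Bcl2l1 with Bax (rho 0.23, Pearson r 0.15) and the lowest that of Bcl2 with Bax (rho -0.29, r -0.20). Bak1 with Bad followed at -0.27 (r -0.18). All cells come from a single table of sparse values, and correlations of this size are given as descriptions only. The BH3-only pairs ran from -0.09 for Bad with Bbc3 to 0.17 for Bid with Bbc3.

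**Figure D4:**
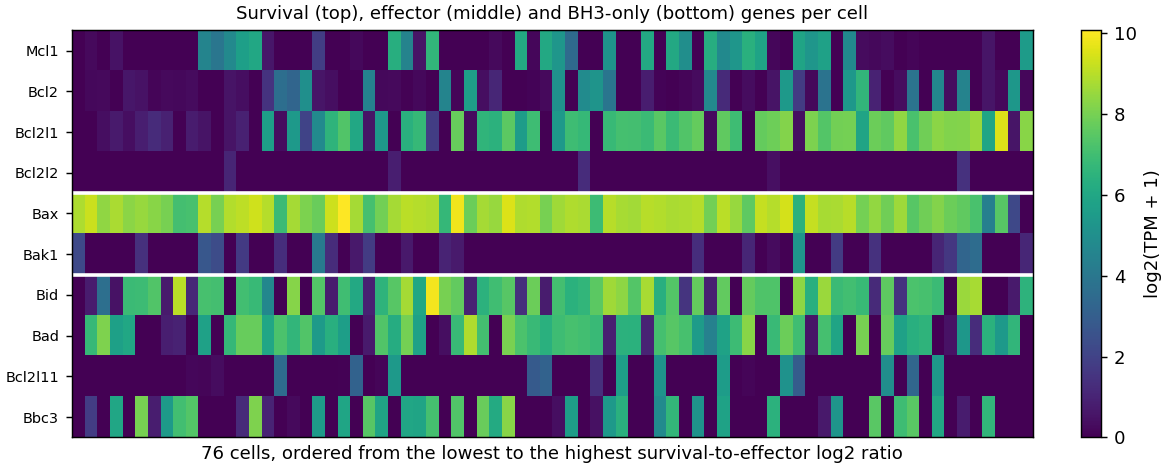
Level of each member as log2(TPM + 1), by colour, in the 76 cells, ordered from the lowest to the highest log2 ratio of survival to effector sums. The Bax row is bright in all but a few cells at the right, whereas the Bcl2l1 row turns from dark at the left to bright at the right, as the ordering requires.

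Against other measures of the same cells, 4 of 135 rho values of the 9 members reached 0.3 in size. Bcl2 was lower where Runx1 was higher (rho -0.35, Pearson r -0.27), with -0.37 in the 37 cells with title numbers 2 to 6 and -0.33 in the 39 with numbers 7 to 11. It was higher where the mean level of 22 G2 and M phase genes was higher (0.32, r 0.21; 0.36 and 0.27 in the same ranges). Bcl2l11 was lower where the granule gene Mpo was higher (-0.39, r -0.32; -0.41 and -0.40). Since Bcl2l11 was listed at 0 in 56 cells and Bcl2 was under 1 TPM in 53, their rho values rank many zeros and traces. Runx1 is also an introduced factor, and its value does not separate introduced from endogenous transcripts. Bid was higher with the mean of 5 granule genes (0.31, r 0.26; 0.39 and 0.23), but its rho with Mpo, 1 of those 5, was 0.06. Conversely, the rho of Bcl2l11 with that mean was -0.20, inside the range of 8034 genes given next. For comparison, the central 95% of the rho of 8033 genes ran from -0.28 to 0.25 with Runx1 and from -0.22 to 0.25 with Mpo. That of 8034 genes ran from -0.23 to 0.26 with the granule genes. For G2 and M phase genes it ran from -0.20 to 0.34, which contains the value of Bcl2. These 4 were picked from 135 as the largest in size. The ranges of title numbers divide the same cells, so their values are no replication. Leaving out the 2 most extreme cells by the other measure gave -0.36, 0.34, -0.38 and 0.33 in the order given.

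Some relations of smaller size involved genes of the same pathway or of a lineage. Mcl1 with the T lineage genes was at -0.30 over all cells, but at -0.54 in title numbers 2 to 6 and -0.10 in numbers 7 to 11. Bax with Runx1 had a rho of 0.29 and a Pearson r of 0.07. Bbc3 had a rho of 0.25 (r 0.18) with Cdkn1a, another p53 target, and 0.07 with Trp53 itself. The value with Cdkn1a was 0.17 in title numbers 2 to 6 and 0.38 in numbers 7 to 11. With the mean of the list of p53 and its targets Bbc3 had a rho of 0.20. No range over all genes was computed for Cdkn1a. Bcl2 had a rho of 0.28 (r 0.19) with the T cell kinase gene Lck. With the number of genes detected per cell the members' rho ran from -0.13 for Bad to 0.22 for Bbc3.

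**Figure D5:**
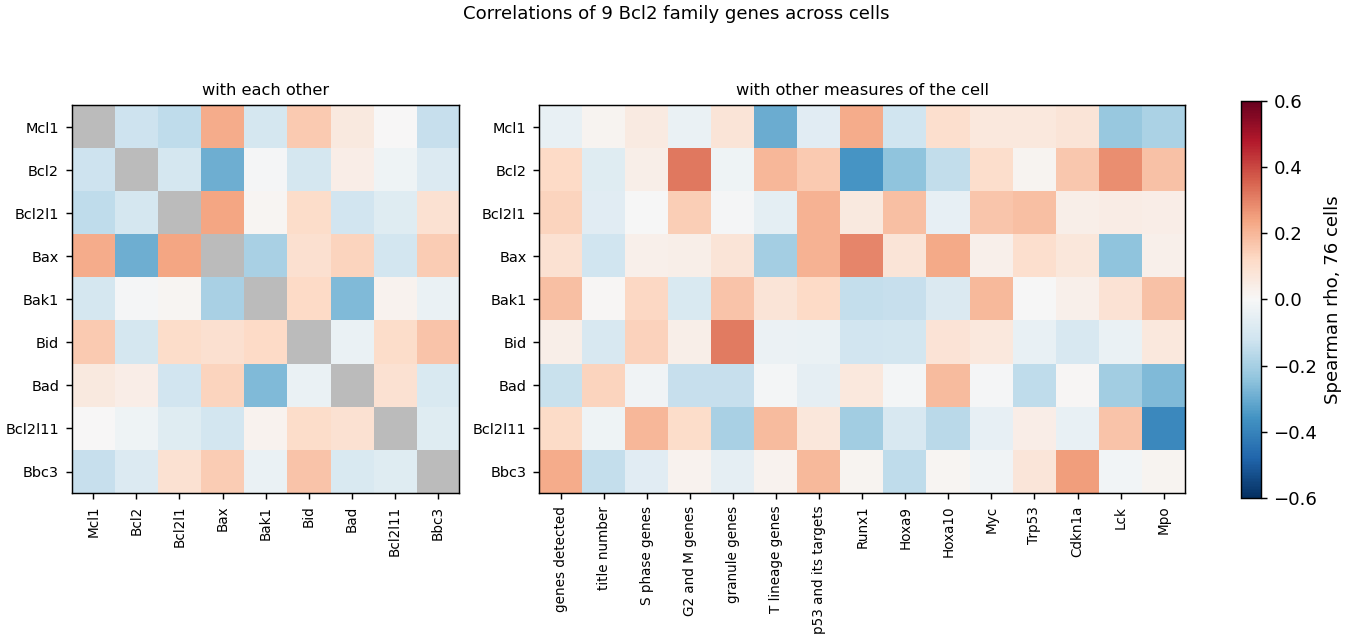
Spearman rho across 76 cells, by colour, of the 9 members detected in at least 10 cells with each other (left) and with other measures of the cell (right). Most squares are pale; the strongest on the left is Bcl2 with Bax (-0.29) and on the right Bcl2l11 with Mpo (-0.39).

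For each of the 7 members detected in at least 20 cells, the 3 genes with the most similar pattern were taken from 5808 genes. The highest rho was 0.54, of Bcl2 with Wbp4, a splicing protein gene, followed by Mrpl45 (0.48) and Brd7 (0.40). Mcl1 was most like Rftn1 (0.47), Nupr1 (0.45) and Itgb1 (0.45). Bcl2l1 was most like Nfs1 (0.41), Kif20a (0.40) and Mdh1 (0.37). For Bax these were Emc10 (0.41), Tmem97 (0.39) and Ebi3 (0.38), and for Bid Grwd1 (0.39), Eef1d (0.38) and Mrps7 (0.38). Those of Bad included Znhit2 (0.41) and Nadkd1 (0.33), and those of Bbc3 were Stat6 (0.46), Rbmx (0.43) and Pkm (0.40). The lowest rho of these members ran from -0.37 for Bax to -0.47 for Bcl2l1, and for Bcl2l1, Bid and Bad the least alike gene lay farther from 0 than the most alike. No other member was among them.

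Further relatives of the family were described from a list of 18 genes, which also held genes named for binding its proteins (Bnip1, Bnip2, Bnip3 and Bnip3l). Of these 16 were in the table and 5 were detected in at least 38 cells, beside 23.1% of all genes. These were Bnip3 and Bnip3l, mitophagy receptors, in all 76 cells each with medians of 629 and 163 TPM, and Bnip2 in 54, Bcl2l12 in 52 and Bnip1 in 39. Pmaip1, the BH3-only p53 target Noxa, which neutralises Mcl1, was in 23 cells, all at 10 TPM or more. Bok, an effector relative, was in 9, the BH3-only gene Bmf in 2 and Bik in 0. The survival genes Bcl2a1a, Bcl2a1b and Bcl2a1d were in 2, 1 and 2 cells and Bcl2a1c in 0. They are near-identical copies, so the split of reads among them is uncertain.

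Downstream of the mitochondria, Cycs (cytochrome c) had a median of 162 TPM and was in 75 cells, and Diablo, whose protein is released with it, in 60 with a median of 131 TPM. Their partners in caspase activation were rarer. Apaf1, the scaffold of the apoptosome, was in 6 cells and Casp9, the caspase it activates, in 13, while Casp6 was in 75. Of the 13 apoptosome and caspase genes 6 were in at least 38 cells, beside 23.1% of all genes. Among the inhibitors of apoptosis, 1 of 7 was, Birc6 in 51 cells with 9 at 10 TPM, and Xiap was in 7. Birc5, which acts chiefly in mitosis, was in 26.

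Upstream, 3 of 11 death receptor genes were in at least 38 cells, beside 23.1% of all genes. These were Casp8, the enzyme that cuts Bid, in 74 with a median of 191 TPM, Tradd in 59 and Cflar in 38. The receptor gene Fas was in 2 cells and Fasl in 1. At the mitochondrial membrane 11 of 12 listed partners were so frequent. Among them were Vdac2, which holds Bak1 in the membrane, in 75 cells at a median of 296 TPM, Mtch2, which recruits cut Bid, in 69, and the 14-3-3 gene Ywhae, of a family that binds phosphorylated Bad, in 76 with a median of 614 TPM.

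Among regulators, Trp53 was detected in 72 cells at 297 TPM in the median. Of the 16 genes of its list 3 were in at least 38 cells, beside 23.1% of all genes. These were Trp53, Cdkn1a in 61 and Aen in 44. Of 17 regulators 9 were so frequent, among them the kinase Pim2, which phosphorylates Bad, in 76 cells with a median of 739 TPM, Myc in 75 and Nfkb1 in 62. Foxo3, which activates Bcl2l11, was in 8 cells and Foxo1 in 1. Of 13 cytokine receptor genes 5 were so frequent, among them Il2rg in 76, Csf2rb in 44, Kit in 43 and Flt3 in 40. Il7r, whose signal maintains Bcl2 in lymphocytes, was in 8 and Epor, whose signal maintains Bcl2l1 in red cell precursors, in 0.

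The positions in the titles were examined as a possible batch, although the labels do not say what they mean. By the number in the title, detection of Bax ran from 87.5 to 100%, that of Bcl2l1 from 37.5 to 87.5% and that of Bcl2 from 0 to 62.5%, in sets of 6 to 8 cells. By the letter, detection of Mcl1 ran from 10 to 70% and that of Bcl2 from 22.2 to 40%. The part of position in these values was not tested. Bcl2l1 was the highest survival gene in 59.5% of cells with numbers 2 to 6 and in 64.1% of those with numbers 7 to 11, and the survival sum was below the effector sum in 89.2% and 89.7%. In the 65 cells with at least 3500 genes these shares were 61.5% and 89.2%, and in the 61 cells without title numbers 10 and 11 they were 65.6% and 86.9%.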

How the data were processed

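RNA of 76 single iHPCs was amplified and sequenced with Vazyme kits, per the labels' protocols. The authors deposited 1 table of TPM with 15192 genes, and every column summed to 1000000, so depth is unknown and no interval for a level was made. The submitters' processing notes name StringTie 1.3.4, HISAT2 2.1.0, SAMtools 0.1.19, bcl2fastq and the build mm10. The order of steps, the annotation and whether strand was used are not stated there. No 2 columns were identical: Pearson r of log2(TPM + 1) between cells was 0.476 to 0.766.

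From the table, shares of cells, medians, sums and correlations of log2(TPM + 1) were computed in Python 3.11.15 with pandas 2.3.3, numpy 2.4.6 and scipy 1.17.1. The members, the 17 lists (202 genes, 192 found, 2 under an older symbol) and the rules were chosen with earlier results of these data known. Named genes were the members, the 3 most detected genes of each list and the 3 genes most like each member in at least 20 cells. Polr2a, Tbp, and all other list genes named, overlapping genes included, were chosen after their values were seen. A few genes that the rule names are not reported here. Under an alternative, medians were judged by the order-statistic 95% interval of the reported value and shares by its exact interval. The search for the most similar genes, the rho of unrelated genes and the interval of a median were tested on simulated data, and the other procedures were not. Doublets were not searched for, as the labels describe sorted single cells. Transcript lengths are from GENCODE M21, gene spans and sequences from RefSeq on GRCm38.p6, the same assembly as mm10.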

Additional observations from a re-analysis of the deposited data

How the results depend on the processing

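Counting any value above 0 as detection moved the median number of members per cell to 6 and the share of cells with a survival gene and an effector to 98.7%; at 5 and 10 TPM that share was 84.2%, within the interval of the value at 1 TPM. The log2 ratio of survival to effector sums ran from -1.93 to -1.84 over its 7 alternatives. The median pairwise rho ran from -0.04 to 0.04 over its 9, a range that spans 0 and lies inside the interval of the reported value. That interval was taken over the 36 pairs, which share genes and cells. It describes the spread between pairs and not uncertainty over cells. Of 80 shares of single members under alternatives, 9 left their interval: Mcl1 (52.6%), Bcl2 (77.6%), Bcl2l1 (86.8%) and Bid (88.2%) at any value above 0, Bak1 at 5 TPM (6.58%) and 10 TPM (3.95%), Bcl2l2 at both (0%), and Bax in title numbers 2 to 6 (100%). The median level of each member, recomputed under 5 alternatives chosen after seeing the data (the 4 subsets of cells and a rescaling without 95 ribosomal-protein genes), left its interval in 0 of 50 cases. Bak1, Bcl2l11 and Bcl2l2 were listed at 0 in 52, 56 and 71 cells, and their median and interval were 0. Their cases thus had little or no room to move. The subsets hold the same cells as the reported value, so this count is a weak check. No paired analysis was possible because all cells form 1 group. Depth is unknown, and a value of 0 does not separate failed capture from absence.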
